A study of Mus musculus with 6 samples.

Results

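To determine how the contractile programme of vascular smooth muscle behaved in lineage-traced mural cells of the mouse cortex, 10 genes were followed through the deposited single-cell matrices: Acta2, Actg2, Myh11, Myl9, Tagln, Cnn1, Smtn, Des, Pln and Myocd. They were taken as a named set and not by a cut on measured values, although earlier results of these data were known at the choice. The matrices held 23494 genes, and all 10 were present in each of the 3 matrices. Their UMI counts (unique molecular identifiers, 1 per captured transcript) were summed over the cells of each deposited cluster and library, with attention to smooth muscle, to pericytes after injury and to cluster 4 of the Tbx18 line. The study sorted live tdT+ cells from the cerebral cortex of 2 mouse lines at 3 to 4 months of age. The NG2 line was NG2-Cre-ERT2/Ai14-flx, the Tbx18 line was Tbx18-CreERT2/Ai14-flx, and both thus carried the Ai14 tdTomato reporter. Each line gave a naïve library without injury, a physical injury library (saline injected into the cortex) and an ischemic injury library (ET-1/L-NAME, a vasoconstrictor peptide with an inhibitor of nitric oxide synthesis). Injured cortex was collected 3 days after injection, and the labels give tamoxifen treatment for both lines, 7 days ahead of the injury. The Cre of the NG2 line is driven by Cspg4 sequences, which are active in oligodendrocyte precursors as well as mural cells, and that of the Tbx18 line by the Tbx18 gene. Each library pooled the cortices of several mice, so there was 1 library per line and condition and no replicate, and no difference between conditions could be tested.

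Smooth muscle cells contract when myosin filaments pull on actin filaments after calcium entry leads to phosphorylation of the myosin light chain. Most genes of this machinery are switched on together by serum response factor, which binds the CArG box of their promoters with the coactivator myocardin. In brain vessels the programme is strong in the smooth muscle of arteries and arterioles and weak in pericytes of capillaries, and alpha smooth muscle actin is also made by activated fibroblasts in wounds.

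In the GENCODE M21 annotation of mm10 the genes lay on 8 chromosomes. Acta2 (alpha smooth muscle actin) was at chr19:34241090-34255590 on the minus strand and Actg2 (gamma enteric actin) at chr6:83512905-83536265 on the minus strand. Myh11 (smooth muscle myosin heavy chain) was at chr16:14194535-14291372 on the minus strand, and Myl9 (its regulatory light chain) at chr2:156775420-156781658 on the plus strand. Of the actin-binding proteins, Tagln (transgelin) was at chr9:45929619-45936058 on the minus strand, Cnn1 (calponin) at chr9:22099216-22109630 on the plus strand and Smtn (smoothelin) at chr11:3517523-3540612 on the minus strand. Des (desmin, the intermediate filament of muscle) was at chr1:75360329-75368579 and Pln (phospholamban, which holds back the calcium pump of the sarcoplasmic reticulum) at chr10:53337667-53345987, both on the plus strand. Myocd (myocardin) was at chr11:65176561-65269989 on the minus strand.

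RefSeq promoter windows of GRCm38.p6 were held for 6 of the 10 genes, Acta2, Myl9, Cnn1, Des, Pln and Smtn. The CArG box was searched in the 250 bases before each start, and it reads alike on both strands. A full match stood in the window of Myl9 and in 1.47% of all 32851 windows. With 1 inner base allowed that was neither A nor T, matches stood in the windows of Acta2 and Myl9 and in 8.59% of all windows. These 4 matches are shown, with 10 flanking bases on each side, because Myocd, a member of the set, is the coactivator that works through this motif and because Acta2 and Myl9 were among the most abundant members. The capitals mark the matched 10 bases, and the first sequence is the full match.
Myl9, 161 bases before the start, chr2:156775293-156775322, plus strand: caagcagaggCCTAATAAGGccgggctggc
Myl9, 99 bases before the start, chr2:156775355-156775384, plus strand: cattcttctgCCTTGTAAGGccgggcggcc
Acta2, 84 bases before the start, chr19:34255438-34255467, minus strand: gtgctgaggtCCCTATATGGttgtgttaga
Acta2, 34 bases before the start, chr19:34255388-34255417, minus strand: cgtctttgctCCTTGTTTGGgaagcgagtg
Both Acta2 matches also lie within the first exon of the longest Acta2 transcript of GENCODE M21, which starts further upstream. No binding was measured in this series.

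The 6 libraries held between 686 and 4306 cells, with a median of 2806 to 9232 UMIs per cell, and the naïve library of the Tbx18 line was the smallest and shallowest. No more than 5 cell barcodes were shared by any pair of libraries, and those shared within a line did not have the same counts. Levels are given as CPM, the UMIs of a gene per 1000000 UMIs of all genes in the same cells, with exact 95% Poisson intervals in parentheses, which cover counting error only. Counting is by 3′ tags, 1 UMI per transcript whatever its length, so CPM can be set side by side between genes. Acta2 and Actg2 have nearly identical coding sequences, and how reads shared by the pair were assigned is not given in the sources used here. Clusters were formed by the authors on the expression of these same cells, so that a high level of the set in a smooth muscle cluster is a description and no test. Cluster 3 of the NG2 line (503, 242 and 277 cells of the naïve, physical and ischemic libraries) and cluster 1 of the Tbx18 line (63, 827 and 47 cells) carried a list of 10 smooth muscle markers that excludes the set at 5250 to 5599 CPM and 4494 to 5551 CPM, respectively. In pericyte cluster 2 of the Tbx18 line the same list summed to 820 to 1428 CPM.

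In smooth muscle the set made up between 2.34% and 3.75% of all UMIs. In all 6 libraries Acta2 was highest, followed by Tagln, Myl9, Myh11, Pln, Des and Myocd, then by Cnn1 and Smtn in varying order, and Actg2 was lowest. The intervals of neighbours among the 6 highest genes did not overlap in any library of the NG2 line, whereas those of Cnn1 and Smtn overlapped in its naïve and ischemic libraries and those of Pln and Des overlapped in the ischemic library of the Tbx18 line.

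The actins set the range. In NG2-tdT+ smooth muscle Acta2 stood at 12419 (12308 to 12530.1) CPM in naïve cells, 12522 (12382 to 12663) after physical injury and 11679 (11539.9 to 11819) after ischemic injury. In Tbx18-tdT+ smooth muscle it stood at 8126 (7876 to 8382) CPM in naïve cells, 13573 (13496 to 13651) after physical injury and 11619.8 (11172 to 12081) after ischemic injury. The naïve Tbx18 library was the one low value among 6. Actg2 was the scarcest member, at 22.1 (17.7 to 27.3) CPM in naïve cells, 43.7 (35.7 to 52.8) after physical injury and 11.2 (7.35 to 16.5) after ischemic injury in the NG2 line, with no overlap between any pair of the 3 intervals. In the Tbx18 line Actg2 rested on 3, 216 and 4 UMIs, and only the physical library gave a usable level, 25.03 (21.8 to 28.6) CPM.

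The myosin subunits were nearly as even. Myh11 was measured in NG2-tdT+ smooth muscle at 3871 (3809 to 3933) CPM in naïve cells, 4003 (3924 to 4083) after physical injury and 3662 (3585 to 3741) after ischemic injury. In the Tbx18 line its levels were 3320.2 (3161 to 3486) CPM in naïve cells, 4579 (4534 to 4624) after physical injury and 2994 (2769 to 3233) after ischemic injury. Myl9 levels of the NG2 line were 5520.3, 5934 and 5572 CPM in the same order of libraries, against 3816, 6793 and 4917 CPM in the Tbx18 line. For Myl9 the naïve Tbx18 library was again the lowest of the 6, while for Myh11 the ischemic library of that line was lowest.

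Among the actin-binding proteins, Tagln followed Acta2, at 9294, 9656 and 8572 CPM in the NG2 line and 6540.4, 10105 and 9024 CPM in the Tbx18 line. Cnn1 was the most variable member after Actg2. It stood at 137 (125 to 149) CPM in naïve cells, 233 (214 to 253) after physical injury and 135 (121 to 151) after ischemic injury in the NG2 line, and at 44.9 (28.1 to 68.0) CPM in naïve cells, 237 (227 to 248) after physical injury and 114 (74.1 to 169) after ischemic injury in the Tbx18 line. In both lines the physical injury library was the highest for Cnn1 and its interval lay apart from the other libraries of the line. In the Tbx18 line Cnn1 rested on 22, 2049 and 25 UMIs. The naïve UMIs lay in 10 of 63 cells and the ischemic ones in 8 of 47, a clumping that the intervals do not cover. Smtn ranged only from 115 to 165 CPM over the 6 libraries.

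Des, Pln and Myocd varied little in the NG2 line, at 766, 649 and 693 CPM, 960.1, 919 and 1031 CPM and 227, 259 and 211 CPM, respectively. In the Tbx18 line Des was at 482, 606 and 522 CPM, Pln at 682, 1129 and 700.5 CPM and Myocd at 251, 273 and 197 CPM. The coactivator Myocd was thus present at a like level in all 6 smooth muscle sums, with the lowest value in the 47 ischemic Tbx18-tdT+ cells.

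**Figure D1:**
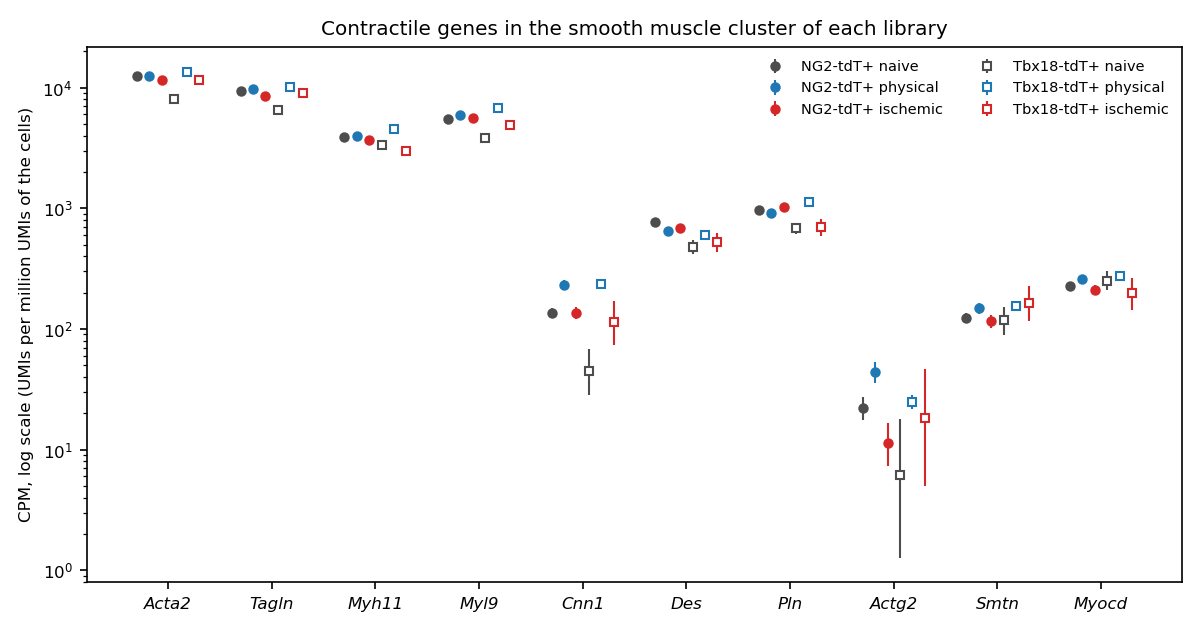
Level of each of the 10 genes in the smooth muscle cluster of each library (y axis, CPM, log scale), with filled circles for the NG2 line, open squares for the Tbx18 line, colours for the condition and bars for 95% Poisson counting intervals. Acta2 sits between 8126 and 13573 CPM in all 6 libraries, while Actg2 lies between 6.12 and 43.7 CPM with wide bars in the naïve and ischemic Tbx18 libraries.

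After injury, all 10 genes were within 2-fold of naïve in smooth muscle of the NG2 line in both conditions, where few genes of any kind passed 2-fold. The median log2 ratio of the set was 0.08 after physical injury (median of all genes -0.04), where 2.64% of all genes were at least 2-fold higher and 3.53% at least 2-fold lower. After ischemic injury it was -0.10 (all genes -0.03), and 2.93% of all genes were at least 2-fold higher and 3.96% at least 2-fold lower. The largest differences were those of the rarer actin-associated members. Log2 ratios of physical injury to naïve were 0.98 (0.56 to 1.41) for Actg2 and 0.77 (0.60 to 0.94) for Cnn1, with exact 95% counting intervals. After ischemic injury Actg2 was at -0.98 (-1.67 to -0.33) and Cnn1 at -0.01 (-0.22 to 0.19). Acta2 itself differed from naïve by 0.01 (-0.01 to 0.03) and -0.09 (-0.11 to -0.07), respectively. Between the injuries, ischemic against physical, the median was -0.15 and Actg2 was the only member past 2-fold, at -1.96 (-2.64 to -1.33); 3.54% of all genes were at least 2-fold higher and 3.65% at least 2-fold lower.

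In the Tbx18 line the members were higher after physical injury than in the naïve library, with a median log2 ratio of 0.68 against -0.14 for all genes. Cnn1, at 2.40 (1.80 to 3.08), and Actg2, at 2.03 (0.47 to 4.32), passed 2-fold, and no member was lower, in a comparison where 5.76% of all genes were at least 2-fold higher and 12.3% at least 2-fold lower. Acta2 was 1.67-fold (1.62 to 1.72) higher, Myl9 1.78-fold (1.70 to 1.86) higher and Tagln 1.55-fold (1.49 to 1.60) higher, whereas the interval of Myocd, 0.12 (-0.14 to 0.39), included 0. With TMM factors the median became 0.89. After ischemic injury 9 members had the 10 counts required, their median was 0.37, and Cnn1, at 1.35 (0.46 to 2.25), was the only member past 2-fold, where 8.0% of all genes were at least 2-fold higher and 12.7% at least 2-fold lower. Ischemic against physical, the median was -0.46 (all genes 0.19) and Cnn1, at -1.05 (-1.68 to -0.49), was the only member past 2-fold lower; 13.8% of all genes were at least 2-fold higher and 6.01% at least 2-fold lower. Each of these comparisons rests on a sum of 63 or 47 cells. The cells had medians of 7834, 10561 and 2831 UMIs in the naïve, physical and ischemic libraries. The top 5 of the 47 ischemic cells held 39.5% of the Acta2 and 50.6% of the Myh11 UMIs. Cnn1 rested on 22 naïve and 25 ischemic UMIs, and its top 5 ischemic cells held 88% of the latter. The pericyte list was at 8208 CPM in naïve, 2755 CPM in physical and 8456 CPM in ischemic Tbx18-tdT+ smooth muscle, with all 8 of its genes detected in the first pair and 7 in the last, and the endothelial list was at 69.4, 208 and 1195 CPM. The part of depth and of these lists in the differences was not tested.

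Set against each other within a condition, the lines were close after injury. After physical injury the median of Tbx18 over NG2 was 0.07 and no member differed 2-fold, where 3.33% of all genes were at least 2-fold higher and 4.53% at least 2-fold lower. After ischemic injury it was -0.14, again with no member past 2-fold, where 9.65% of all genes were at least 2-fold higher and 7.26% at least 2-fold lower. In the naïve libraries, compared within the matrix that holds both (47 and 393 cells), the median was -0.43, and Cnn1, at -1.35 (-2.01 to -0.76), and Actg2, at -1.76 (-4.06 to -0.16), were more than 2-fold lower in the Tbx18 line, where 7.82% of all genes were at least 2-fold higher and 8.12% at least 2-fold lower. Acta2 stood at -0.51 (-0.56 to -0.46) and Myh11 at -0.13 (-0.20 to -0.05) in that comparison. The lines were sorted and sequenced as separate libraries, so line and library cannot be told apart.

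Single cells showed that the abundant and the rare members are carried differently. After thinning every cell to 1000 UMIs, the median smooth muscle cell showed 5 of the 10 genes in each of the 6 libraries. Acta2 was seen in 97.8%, 99.6% and 97.8% of naïve, physical and ischemic NG2-tdT+ smooth muscle cells and Myh11 in 86.5%, 91.2% and 86.7%. Actg2, by contrast, came from few cells. Its 86 UMIs in naïve NG2-tdT+ smooth muscle lay in 31 of 503 cells, its 106 UMIs after physical injury in 35 of 242 cells, and its 216 UMIs in the physical Tbx18 library in 87 of 827 cells. The top 10% of cells held 63.5%, 45.1% and 65.5% of the Cnn1 UMIs of the NG2 line, against 23.3%, 22.1% and 24.3% for Acta2. At equal depth Cnn1 was seen in 9.09% (6.71 to 11.98), 15.5% (11.1 to 20.7) and 10% (6.69 to 14.2) of naïve, physical and ischemic cells.

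Other genes of the contractile apparatus stayed within 2-fold in smooth muscle of the NG2 line, as the set did. Of 24 listed genes (filament, kinase, phosphatase and calcium-handling genes outside the set), none passed 2-fold in NG2-tdT+ smooth muscle after either injury, with medians of 0.12 and -0.05. Few genes of any kind did, as 2.64% and 2.93% of all genes were at least 2-fold higher and 3.53% and 3.96% lower. The most abundant were the tropomyosins and caldesmon: Tpm1 at 4211, 4190.3 and 4252 CPM in naïve, physical and ischemic cells, Tpm2 at 3734, 4103 and 3980.2 CPM and Cald1 at 3603, 3766 and 3761 CPM. In Tbx18-tdT+ smooth muscle Csrp1, a LIM protein of the actin cytoskeleton, was at 635, 1602 and 966 CPM, and Ryr2, a calcium release channel, was also over 2-fold higher after physical injury. Casq2 (calsequestrin, the calcium store protein) was at 239, 46.6 and 288 CPM, the same order as the pericyte markers, and in naïve pericytes of this line it reached 483 CPM. After ischemic injury the apparatus list had 1 gene past 2-fold lower, Prkg1 (cGMP-dependent kinase), and none higher, with a median of 0.06. In this line 5.76% and 8.0% of all genes were at least 2-fold higher after physical and ischemic injury, and 12.3% and 12.7% lower. Of 10 measured control genes, Srf stayed between 19.5 and 30.6 CPM in all 6 smooth muscle sums. The NG2 line had no control gene past 2-fold in either injury, to be read beside the low shares of all genes given for it above. The endothelin receptor Ednra, through which ET-1 contracts vessels, was at 261, 224 and 258 CPM in the NG2 line and 318, 226 and 353 CPM in the Tbx18 line.

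**Figure D2:**
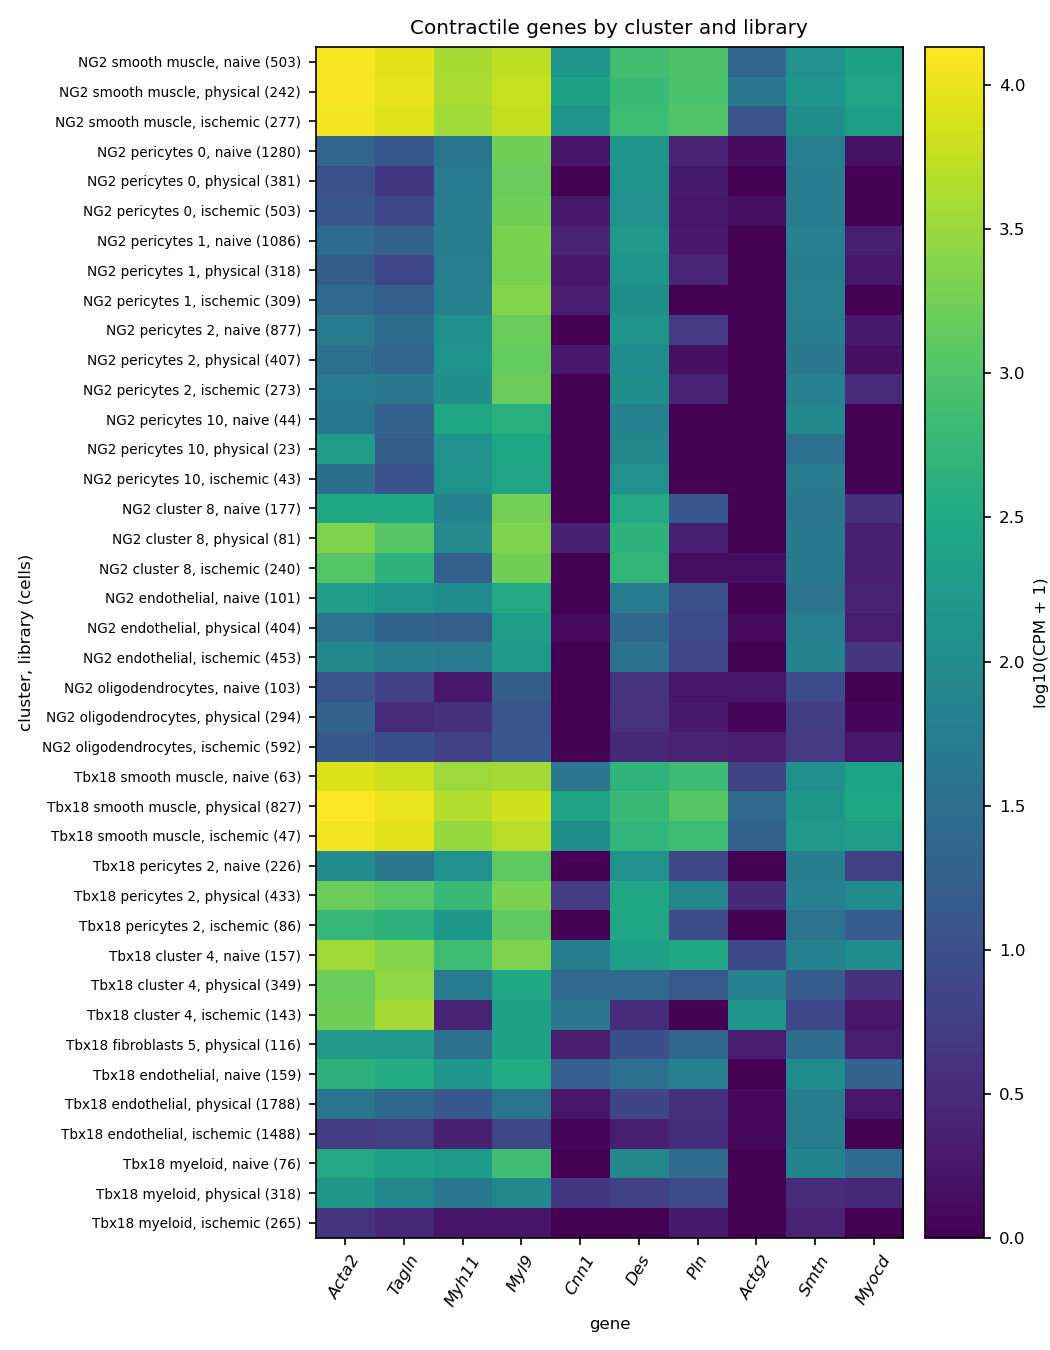
Level of the 10 genes (columns) in clusters and libraries (rows, with the number of cells), as log10(CPM + 1); sums of fewer than 20 cells are left out. Smooth muscle rows are bright for most genes, pericyte rows for Myl9 and to a lesser degree Des and Smtn, and injured rows of cluster 8 of the NG2 line and cluster 4 of the Tbx18 line for Acta2 and Tagln with little Pln or Myocd.

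Pericytes carried part of the set. In pericyte clusters 0, 1 and 2 of the NG2 line Myl9 stood between 1405 and 2365 CPM over the 3 libraries, and Des between 100.4 and 167 CPM. In oligodendrocytes of the same libraries, which should lack both, Myl9 was at 15.3, 11.8 and 12.1 CPM and Des at 3.06, 2.84 and 1.96 CPM. Oligodendrocytes were deeper than pericytes, with medians of 13252, 23779 and 29600.5 UMIs, and the part of depth in this reference was not tested. Smtn, between 44.5 and 61.0 CPM in these clusters, was below smooth muscle but above oligodendrocytes, which were at 7.64, 4.69 and 3.87 CPM. Myh11 was lowest in naïve cells of cluster 0, at 41.3 CPM, and highest in physical cells of cluster 2, at 132 CPM. Acta2 was at 9.75 to 51.7 CPM, against 11.5, 19.2 and 12.8 CPM in oligodendrocytes, so that the lower part of its range was at or below the level of cells that should lack it. Cnn1, Actg2, Pln and Myocd were under 4 CPM in these 3 clusters in every library. Oligodendrocytes were a low reference. Summed, the 10 genes made up 0.00451%, 0.00447% and 0.00485% of their UMIs in the naïve, physical and ischemic libraries. In endothelial cells of this line the sum was 0.0870%, 0.0364% and 0.0481%, and over all pericyte clusters 0.206%, 0.237% and 0.265%.

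Shares of cells were compared at equal depth. Over all pericyte clusters of the NG2 line (0, 1, 2, 8 and 10), an Acta2 UMI was found after thinning to 1000 UMIs in 3.13% (2.57 to 3.77) in naïve cells, 4.04% (2.99 to 5.32) after physical injury and 5.67% (4.48 to 7.07) after ischemic injury, with exact Clopper-Pearson 95% intervals. The oligodendrocyte shares were 1.01%, 0.342% and 0.874%. Thinned oligodendrocytes showed none of the 10 genes in 97.0%, 98.3% and 96.9% of cells, against 70%, 78.6% and 78.6% of endothelial cells of this line. Before thinning the oligodendrocytes had medians of 13252, 23779 and 29600.5 UMIs, against 3817, 4749 and 4519 in the pericytes. Whether this gap lowers the reference was not tested. Cells under 1000 UMIs, 43 of 3464 naïve, 22 of 1210 physical and 63 of 1368 ischemic pericytes, were left out, and without thinning the Acta2 shares were 9.38%, 9.83% and 11.0%. Without cells holding at least 2 UMIs of the marker list of a class other than smooth muscle, the thinned Acta2 shares were 3.13%, 2.86% and 2.86%, and the injured libraries were no longer higher. This left 2147 of 3464 naïve, 685 of 1210 physical and 485 of 1368 ischemic cells. The lists used were those of endothelial cells, fibroblasts, myeloid cells, oligodendrocytes, oligodendrocyte precursors and red blood cells. The marker UMIs were counted before thinning, in cells of unequal depth, and the part of this filter in the shares was not tested. With cells that held 2 UMIs of the smooth muscle list left out as well, the Acta2 shares were 3.09%, 1.79% and 2.08%, of 550, 112 and 96 cells. Myl9 was found in 79.1%, 74.3% and 75.6% and Des in 13.2%, 11.6% and 14.8% of the thinned pericytes of the 3 libraries, far from 1.01%, 0.342% and 1.22% and 0%, 0% and 0% of oligodendrocytes. In the Tbx18 line naïve pericytes (cluster 2) showed Acta2 in 7.17%, below endothelial cells (37.2%) and myeloid cells (18.0%) of the same library, so that no expression is read from this share. These are no clean references, as 13 of 137 thinned endothelial cells showed at least 5 of the 10 genes.

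**Figure D3:**
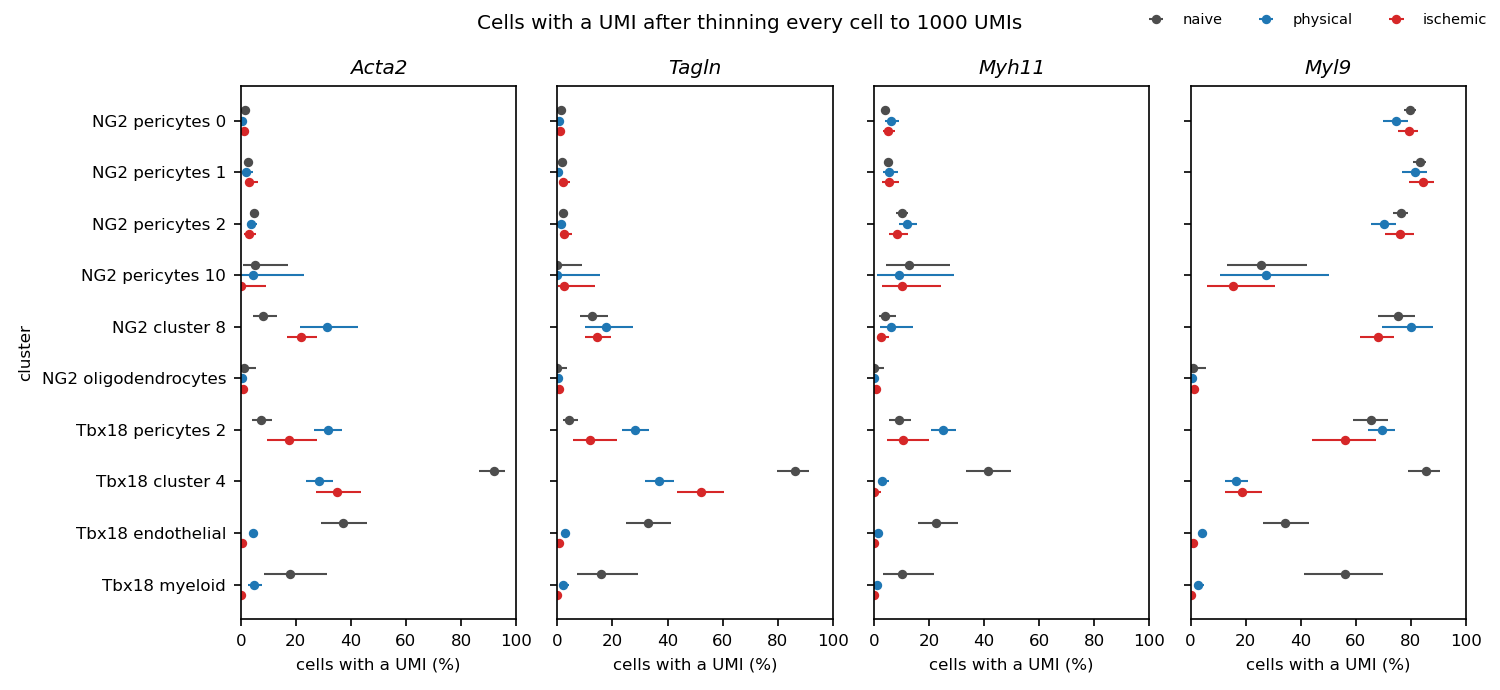
Share of cells with at least 1 UMI of Acta2, Tagln, Myh11 or Myl9 after thinning every cell to 1000 UMIs (x axis, percent; one row per cluster, colours for the condition, bars for 95% Clopper-Pearson intervals). Myl9 is found in most pericytes of clusters 0, 1 and 2, whereas the injured rows with the highest Acta2 shares are cluster 8 of the NG2 line (31.2% and 21.9%) and clusters 2 and 4 of the Tbx18 line, and the naïve endothelial (37.2%) and myeloid (18.0%) rows of the Tbx18 line lie above its naïve pericytes.

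After injury, Acta2 and Tagln were higher in the pericyte sum of the NG2 line, and a single small cluster held the difference. Over the 5 pericyte clusters Acta2 was at 45.9 CPM in naïve cells, 286 CPM after physical and 380.5 CPM after ischemic injury, log2 ratios of 2.64 (2.51 to 2.77) and 3.05 (2.93 to 3.18). Tagln was at 33.5, 149 and 176 CPM. These were the 2 members past 2-fold higher in each comparison, and Pln, on 35, 6 and 5 UMIs, was past 2-fold lower. The medians of the 9 members with enough counts were -0.03 and -0.15. After physical injury 3.16% of all genes were at least 2-fold higher and 3.98% at least 2-fold lower, and after ischemic injury 6.19% of all genes were at least 2-fold higher and 4.97% at least 2-fold lower. Without cluster 8, an alternative chosen after seeing the data, Acta2 turned to -0.53 and -0.33 on the log2 scale and no member was 2-fold higher in either comparison. With naïve cells taken by their cluster in the naïve matrix it came to 0.40 and 0.82, again with no member 2-fold higher, and averaged per cell it came to 1.20 and 1.84. The pericyte clusters of the naïve matrix included its cluster 5, where the pericyte list led and the smooth muscle list came second. The 334 naïve NG2-tdT+ cells of that cluster held 2457 Acta2 UMIs, against 626 in the naïve sum above. The naïve Acta2 level, and the ratios to it, thus depend on the clustering used. Of the apparatus genes described above, Csrp1, Sorbs2 and Ryr2 were past 2-fold higher and Pdlim3 lower over the 5 clusters after physical injury, and Csrp1 and Pdlim7 higher after ischemic injury.

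Cluster 8 of the NG2 line, which the authors named as mesenchymal-like pericytes, held 177, 81 and 240 cells. Its cells had medians of 4026, 7733 and 8444 UMIs in the naïve, physical and ischemic libraries. Its pericyte list summed to 25908, 26593 and 24105 CPM and its fibroblast list to 170.4, 349 and 391 CPM. With each gene scaled to its highest level in any cluster of the matrix, the fibroblast list led by its mean, at 0.645 against 0.564 for pericytes. Acta2 in this cluster stood at 281 (244 to 322) CPM in naïve cells, 2167 (2064 to 2274) after physical injury and 1062 (1021 to 1103) after ischemic injury. Tagln was at 289 (252 to 331) CPM in naïve cells, 1128 (1054 to 1206) after physical injury and 475 (448 to 503) after ischemic injury. For both genes all 3 intervals lay apart, with physical injury highest and naïve lowest. Des, at 307, 469 and 500.4 CPM, was 1.53-fold (1.29 to 1.81) and 1.63-fold (1.41 to 1.89) of its naïve level, while Myl9 stayed at 1833, 2159 and 1689 CPM. Myh11 went the other way after ischemic injury, at 66.3 (49.0 to 87.6) CPM in naïve cells, 88.2 (68.4 to 112) after physical injury and 17.8 (13.0 to 23.9) after ischemic injury. Pln, Myocd, Cnn1 and Actg2 together gave no more than 6 UMIs in either injured library. The Acta2 UMIs lay in few cells, as the top 10% of cells held 85.1%, 84.5% and 83.9% of them. In the physical library 1 cell held 562 of the 1646 Acta2 UMIs, a spread that the Poisson intervals do not cover. Thinned to equal depth, Acta2 was found in 8.05% (4.47 to 13.1) in naïve cells, 31.2% (21.3 to 42.6) after physical injury and 21.9% (16.8 to 27.8) after ischemic injury. Endothelial markers moved with these levels, at 294, 735 and 680.3 CPM. Injured cells with at least 5 Tagln UMIs, a threshold set after seeing the data, had medians of 13454 (physical) and 17195 (ischemic) UMIs. The rest had 6922 and 7973 UMIs. The endothelial list was at 1244 and 967 CPM in these Tagln cells and at 484 and 569 CPM in the rest. The part of depth and of endothelial markers was not tested. Setting aside cells with at least 2 UMIs of the marker list of another class (fibroblasts included, smooth muscle not) left 7 members with enough counts and turned the log2 ratio of Acta2 over all NG2-tdT+ pericytes to -0.17 after physical injury, and brought it to 0.26 after ischemic injury. In cluster 8 itself this left 100, 24 and 36 cells.

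In pericytes of the Tbx18 line (cluster 2; 226, 433 and 86 cells) more of the set was higher. The cells were shallower after injury, with medians of 6548, 2540 and 3792 UMIs in the naïve, physical and ischemic libraries, and the part of depth in the levels was not tested. After physical injury the median log2 ratio of the 8 members with enough counts was 2.89, and 6 passed 2-fold higher and none lower, where 11.0% of all genes were at least 2-fold higher and 6.71% at least 2-fold lower. After ischemic injury the median was 0.75 and 4 passed 2-fold higher, where 9.34% of all genes were at least 2-fold higher and 10.1% at least 2-fold lower. Acta2 stood at 96.8 (81.7 to 114) CPM in naïve cells, 1615 (1551 to 1681) after physical injury and 573 (497 to 658) after ischemic injury. Tagln stood at 43.7 (33.7 to 55.7) CPM in naïve cells, 1194 (1139 to 1251) after physical injury and 448 (381 to 524) after ischemic injury. Both were at their lowest in naïve cells and highest after physical injury, with all intervals apart, and Tagln after physical injury was 27.3-fold (21.3 to 35.6) of its naïve level. Myh11 was at 123 (106 to 142) CPM in naïve cells, 607 (568 to 648) after physical injury and 159 (120.0 to 206) after ischemic injury, so that only the physical library stood apart. The same held for Pln, at 6.72, 74.8 and 8.51 CPM, and for the coactivator Myocd, at 5.38 (2.32 to 10.6) CPM in naïve cells, 102 (86.8 to 120.0) after physical injury and 14.2 (4.61 to 33.1) after ischemic injury. Des was over 2-fold higher in both, at 122, 276 and 267 CPM. Myl9, at 1275, 2007 and 1337 CPM, and Smtn, at 53.1, 62.0 and 36.9 CPM, stayed within 2-fold. Cnn1 gave 6 UMIs and Actg2 3 UMIs after physical injury and none in the other libraries.

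Cells of this cluster differed among themselves after physical injury. Of 352 thinned cells, 39 (11.1%, 95% interval 7.998 to 14.8) showed at least 5 of the 10 genes, against 1 of 223 naïve cells, 0 of 75 ischemic cells (where a limit of 3 cells allows up to 4.00%) and 709 of 827 smooth muscle cells of the same library. An Acta2 UMI was found in 7.17% (4.16 to 11.4) in naïve cells, 31.5% (26.7 to 36.7) after physical injury and 17.3% (9.57 to 27.8) after ischemic injury, and a Myh11 UMI in 8.97% (5.56 to 13.5) in naïve cells, 25% (20.6 to 29.9) after physical injury and 10.7% (4.72 to 19.9) after ischemic injury. In endothelial cells of the injured libraries the Acta2 shares were 4.27% and 0.609%. Without thinning, the Acta2 shares of the pericytes were 15.5%, 44.6% and 23.3%. Among cells of the physical library with at least 5 Tagln UMIs, a threshold set after seeing the data that took 80 of 433 cells, Acta2 was at 5451 CPM, Myh11 at 1069 CPM and Pln at 243 CPM. In the other 353 cells Acta2 was at 305 CPM and Myh11 at 449 CPM, still above naïve. Myocd was no higher in the first group, at 82.0 against 109 CPM. The groups also differed in markers, with the smooth muscle list at 2654 CPM in the first group against 1009 CPM. The pericyte list was at 13803 against 22186 CPM and the endothelial list at 2191 against 589 CPM. The part of these markers was not tested. Over the whole cluster the pericyte list was lower after injury, at 31057, 20052 and 19250 CPM, the smooth muscle list was at 820, 1428 and 905 CPM, and the endothelial list at 167, 997 and 1439 CPM, all of its 7 genes being detected in each library. Leaving out cells with 3 or more smooth muscle markers, chosen after seeing the data, moved the median after physical injury to 1.59 with 6 members still past 2-fold. Leaving out cells with at least 2 UMIs of the list of a class other than smooth muscle left 129, 326 and 58 cells, brought the log2 ratio of Acta2 from 4.06 to 3.37 after physical injury and turned it to -0.17 after ischemic injury. In the thinned cells that remained an Acta2 UMI was found in 9.45% (4.98 to 15.9), 29.3% (23.7 to 35.4) and 10.4% (3.47 to 22.7) of the 3 libraries in the same order. With cells that held 2 UMIs of the smooth muscle list left out as well, 24 naïve and 77 physical cells remained, the Acta2 shares were 8.33% (1.03 to 27.0) and 10.4% (4.59 to 19.4), and Myh11 turned to a lower share after physical injury, 13.0% (6.41 to 22.6) against 25% (9.77 to 46.7).

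Part of the apparatus list moved with the set in these cells. Of the 24 genes, 10 were at least 2-fold higher after physical injury and 1 was lower, with a median of 0.38, and 8 of 23 were higher after ischemic injury and 1 lower, with a median of -0.03. Synpo2 (synaptopodin-2, an actin-bundling protein and also 1 of the 10 smooth muscle markers) was at 1.34, 98.3 and 59.6 CPM, Sorbs2 (an adaptor at actin attachment sites) at 10.1, 272 and 90.8 CPM and Csrp1 at 10.1, 215 and 150.4 CPM. Lmod1, the leiomodin that nucleates smooth muscle actin filaments, Pdlim3, Actn1, Flna, Ryr2 and both tropomyosins were also higher after physical injury, Tpm1 at 422, 1274 and 976 CPM. Lmod1 is, like Synpo2, among the 10 smooth muscle markers. After ischemic injury Lmod1, Actn1, Pdlim7 and both tropomyosins were past 2-fold higher beside the 3 genes with values above. Casq2, a gene of high level in naïve pericytes, was past 2-fold lower in both, at 483, 181 and 148 CPM. Of 13 non-muscle filament genes, 4 were higher after physical and 2 after ischemic injury, where 11.0% and 9.34% of all genes were. Vimentin (Vim) was at 86.1, 642 and 633 CPM, Tpm3 was the other gene of both comparisons, and Myl6 and Myh10 were past 2-fold after physical injury.

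**Figure D4:**
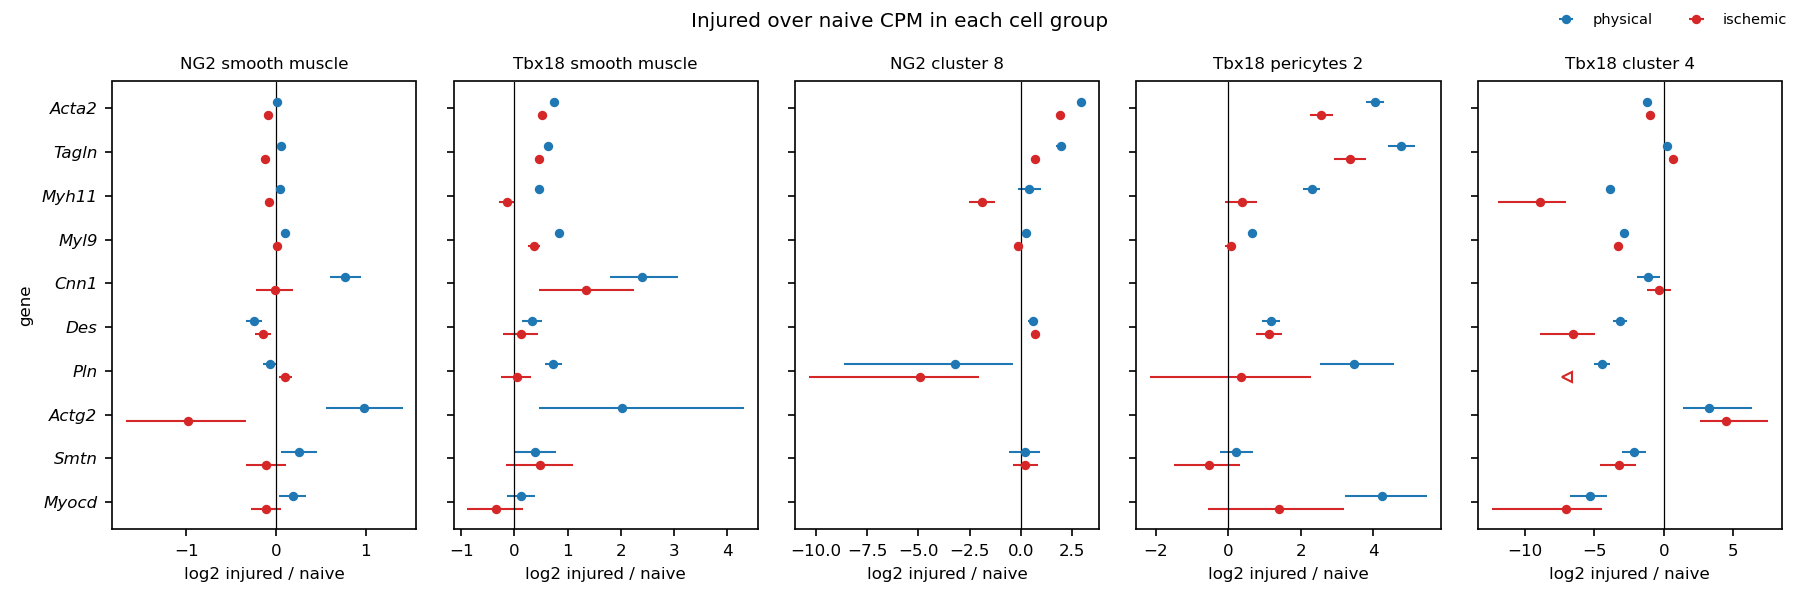
Log2 ratio of injured to naïve CPM for each gene (rows) in 5 groups of cells (panels; x scales differ), with physical injury in blue, ischemic injury in red and bars for exact 95% counting intervals; genes under 10 counts in both libraries together are not drawn, and an open triangle is a bound against a count of 0. Ratios lie near 0 in smooth muscle of the NG2 line, to the right for Acta2 and Tagln in cluster 8 of the NG2 line and pericytes of the Tbx18 line, and to the left for most genes, with Actg2 far to the right, in cluster 4 of the Tbx18 line.

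Cluster 4 of the Tbx18 line, named vascular-genic pericytes by the authors, held 157, 349 and 143 cells, and its cells differed between libraries in more than the set. In the naïve library it had a median of 1724 UMIs per cell and carried the pericyte list at 16100 CPM, the endothelial list at 2746 CPM and the smooth muscle list at 1919 CPM. In the injured libraries the medians were 6756 and 8461 UMIs, the pericyte list was at 133 and 26.1 CPM, the smooth muscle list at 128 and 26.1 CPM, the fibroblast list at 865 and 2028 CPM and the myeloid list at 1178 and 1281 CPM. In naïve cells with at least 5 Tagln UMIs and in the rest, the fibroblast list was at 572 and 534 CPM and the myeloid list at 69.3 and 45.5 CPM. Split in the same way, the endothelial list was at 284 and 379 CPM in physical cells and 128 and 552 CPM in ischemic cells. The naïve and injured cells of this cluster thus carried different markers, and the ratios that follow set unlike cells side by side.

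Most members were lower in the injured cells of cluster 4. The median log2 ratio was -2.50 after physical injury (all genes -0.20), with 8 members past 2-fold lower and 1 higher, where 14.6% of all genes were at least 2-fold higher and 24.1% at least 2-fold lower. After ischemic injury it was -3.25 (all genes -0.42), with 7 lower and 1 higher, where 16.3% of all genes were at least 2-fold higher and 33.4% at least 2-fold lower. With TMM factors the medians were -2.08 and -2.60, with 6 members past 2-fold lower in each. Myh11 stood at 717 (623 to 822) CPM in naïve cells, 49.8 (41.8 to 58.9) after physical injury and 1.54 (0.186 to 5.55) after ischemic injury, on 209, 136 and 2 UMIs. Myl9 was at 2159 (1994 to 2335) CPM in naïve cells, 301 (281 to 322) after physical injury and 227 (201 to 254) after ischemic injury. Des, at 216, 24.5 and 2.30 CPM, Smtn, at 65.2, 14.6 and 6.91 CPM, and Myocd, at 99.6, 2.56 and 0.768 CPM, were lower in the same order. Pln was at 285 and 13.2 CPM in the naïve and physical libraries and had no UMI in 1302064 UMIs of the ischemic library, which allows up to 2.30 CPM.

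Of the members counted as lower, Acta2, with log2 ratios of -1.18 (-1.28 to -1.08) and -1.01 (-1.12 to -0.91), lay nearest to its naïve level after ischemic injury and Cnn1, at -1.12 (-1.92 to -0.24), after physical injury, while Tagln was within 2-fold and Actg2 was higher. Acta2 was at 3512 (3299.9 to 3734) CPM in naïve cells, 1549 (1502 to 1596) after physical injury and 1738 (1667 to 1811) after ischemic injury. Tagln was highest after ischemic injury, at 2386 (2212 to 2570.0) CPM in naïve cells, 2773 (2711 to 2836) after physical injury and 3713 (3609 to 3819) after ischemic injury, and exceeded Acta2 in both injured libraries but not in the naïve one. Cnn1 was at 54.9, 25.3 and 43.0 CPM. Actg2 was at 6.87 (0.831 to 24.8) CPM in naïve cells, 66.3 (57.0 to 76.7) after physical injury and 149.8 (129 to 172) after ischemic injury, on 2, 181 and 195 UMIs, and after ischemic injury this cluster had a higher Actg2 CPM than any smooth muscle sum. Its log2 ratios to the 2 naïve UMIs were 3.27 (1.40 to 6.33) and 4.45 (2.57 to 7.50). Among cells with at least 2000 UMIs, an alternative added after seeing the data that left 40 naïve cells, they were 1.80 and 2.96.

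The injured cells of cluster 4 were themselves divided. After thinning, Acta2 or Tagln was seen without Myh11 in 37.4% (95% interval 32.2 to 42.8) of 337 physical cells and 53.6% (45.0 to 62.0) of 140 ischemic cells, and together with Myh11 in 1.78% (0.656 to 3.83) and in 0 of 140, where a limit of 3 cells allows up to 2.14%. Neither Acta2, Tagln nor Myh11 was seen in 59.6% and 46.4%. In naïve cells of the cluster 56.6% (48.3 to 64.6) showed Acta2 or Tagln without Myh11, 40.8% (32.9 to 49.0) showed them together with Myh11 and 1.97% showed none of the 3. In smooth muscle of the physical library 94.7% (92.9 to 96.1) of 827 cells showed Acta2 or Tagln together with Myh11, and 0 showed none of the 3. Cells with at least 5 Tagln UMIs (113 of 349 and 68 of 143, a threshold set after seeing the data) had medians of 9806 and 10342 UMIs, against 5112 and 4587 UMIs in the rest. In these cells Acta2 was at 3297 and 2894 CPM, Actg2 at 143 and 249 CPM, and Myh11 at 91.3 and 2.56 CPM. They also held the tropomyosins, Tpm1 at 2527 and 2329 CPM and Tpm2 at 1308 and 1289 CPM, and Timp1 (an inhibitor of matrix metalloproteinases), at 3478 and 2969 CPM. In the rest of the cluster Acta2 was at 51.0 and 9.58 CPM and Tpm2 at 62.5 and 84.3 CPM. The myeloid list was at 294 and 23.1 CPM in the Tagln cells and at 1935 and 3161 CPM in the rest. The fibroblast list was at 799.8 CPM in the Tagln cells and 922 CPM in the rest of the physical library, and at 1100 CPM and 3414 CPM in the ischemic library.

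Of the apparatus list in cluster 4, 18 of 24 genes were past 2-fold lower after physical injury and 1 was higher, and 16 of 23 were lower and 1 higher after ischemic injury. Of all genes, 24.1% and 33.4% were at least 2-fold lower and 14.6% and 16.3% at least 2-fold higher after physical and ischemic injury. The kinase Mylk, which phosphorylates the myosin light chain, was at 566, 50.5 and 5.38 CPM, and Prkg1 at 1442, 142 and 25.3 CPM. The other lower genes of both comparisons were Ppp1r12a, Ppp1r12b, Ppp1r14a, Lmod1, Casq2, Synpo2, Atp2a2, Itpr1, Cacna1c, Mrvi1, Sorbs2, Pdlim3, Kcnmb1 and Vcl, with Ryr2 and Flna lower after physical injury. The gene that was higher in both was Pdlim7, a LIM adaptor of actin filaments. Notch3, the receptor that maintains mural cells, was at 532, 10.6 and 0 CPM. Among 13 non-muscle genes 3 were higher and 1 lower in each comparison, to be read beside the shares of all genes given above. The higher ones were Vim, at 989, 4305 and 5012 CPM, cytoplasmic gamma actin (Actg1), at 872, 3486 and 3809 CPM, and Tpm4. The lower ones were Myh9 after physical and Myl12b after ischemic injury.

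Members were also set against Acta2 in the same cells, as UMIs per 100 Acta2 UMIs. The ratios describe the sums, and where the transcripts came from was not tested. In NG2-tdT+ smooth muscle there were 74.8 (73.8 to 75.9), 77.1 (75.8 to 78.4) and 73.4 (72.1 to 74.8) Tagln UMIs per 100 Acta2 UMIs in the naïve, physical and ischemic libraries, and 31.2 (30.6 to 31.7), 32.0 (31.2 to 32.7) and 31.4 (30.6 to 32.1) of Myh11. In Tbx18-tdT+ smooth muscle Myh11 stood at 40.9 (38.5 to 43.3), 33.7 (33.3 to 34.1) and 25.8 (23.6 to 28.1) per 100. Pericytes of the Tbx18 line had 127 (102 to 159), 37.6 (34.8 to 40.6) and 27.7 (20.2 to 37.4), so that after injury the Myh11 ratio was near that of smooth muscle. Not all members were near it after physical injury. Beside 2397 Acta2 UMIs these pericytes held 1773 of Tagln, 2980 of Myl9, 6 of Cnn1 and 152 of Myocd. Smooth muscle of that library held 87199, 58616, 2049 and 2354 beside 117127. Relative to Acta2, Tagln was thus close, Myl9 and Myocd higher and Cnn1 lower in the pericytes. Without cells with UMIs of the lists of other classes, as above, the injured Myh11 values of these pericytes were 44.7 and 146, the last on 24 Acta2 and 35 Myh11 UMIs. In cluster 8 of the NG2 line Myh11 was at 23.6 (16.9 to 32.3), 4.07 (3.14 to 5.20) and 1.68 (1.22 to 2.26), and in cluster 4 of the Tbx18 line at 20.4 (17.5 to 23.7), 3.22 (2.69 to 3.81) and 0.0884 (0.0107 to 0.320). In the 100, 24 and 36 cells of cluster 8 that held fewer than 2 UMIs of each of these lists it was 27.9, 29.3 and 28.6. These values lay within the range of smooth muscle but rested on 61, 41 and 35 Acta2 and 17, 12 and 10 Myh11 UMIs. The fibroblast list, which led in this cluster by scaled mean but lay far below the pericyte list in CPM, was among those lists. Its part in the ratios was not tested. Tagln per 100 Acta2 in cluster 4 was 67.9 (61.6 to 74.9), 179 (172 to 186) and 214 (203 to 225), and in cluster 8 of the NG2 line 103 (84.6 to 125), 52.1 (47.9 to 56.6) and 44.8 (41.8 to 48.0). Actg2 per 100 Acta2 reached 0.196 (0.0236 to 0.708), 4.28 (3.67 to 4.97) and 8.62 (7.41 to 9.98) in cluster 4, against 0.178 (0.142 to 0.22), 0.349 (0.285 to 0.422) and 0.0963 (0.0629 to 0.141) in NG2-tdT+ smooth muscle. In endothelial cells of the naïve Tbx18 library, where Acta2 was at 460 CPM, the ratios were 77.1 (65.4 to 90.9) for Tagln, 32.3 (25.8 to 40.1) for Myh11 and 6.74 (4.22 to 10.3) for Des. The first pair lay within the range of the 6 smooth muscle sums, and the Des value was above it with an interval that reached into it. Other members lay outside that range in these endothelial cells, Myl9 at 71.6 (60.5 to 84.6), Pln at 13.5 (9.69 to 18.4) and Smtn at 22.0 (16.9 to 28.3), against 42.3 to 50.04, 6.03 to 8.83 and 0.989 to 1.46 in smooth muscle.

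**Figure D5:**
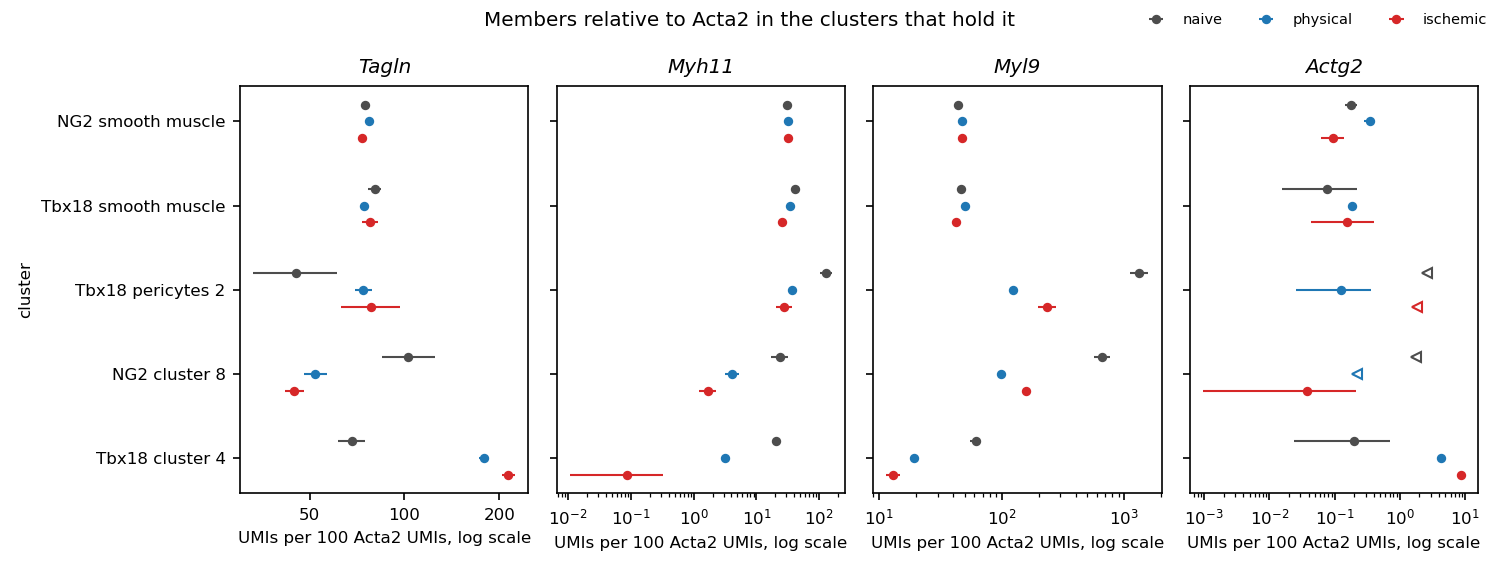
UMIs of Tagln, Myh11, Myl9 and Actg2 per 100 Acta2 UMIs of the same cells (x axis, log scale) in 5 clusters, with colours for the condition, bars for exact 95% counting intervals and open triangles for the upper bound where no UMI was counted. Myh11 stays between 25.8 and 40.9 in smooth muscle and is at 0.0884 in ischemic cells of cluster 4, where Tagln and Actg2 lie to the right of all other groups.

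Across 47 sums of at least 20 cells (clusters by library of both lines), each member was correlated with the mean log2(CPM + 1) of the other 9. Pearson's r was 0.92 for Acta2, 0.90 for Tagln, 0.89 for Myocd and 0.89 for Myh11, between 0.75 and 0.83 for Pln, Cnn1, Myl9 and Des, and lowest for Smtn (0.68) and Actg2 (0.64). Smtn was also found outside mural cells, at 101, 52.5 and 54.4 CPM in endothelial cells of the Tbx18 line. Of 16094 genes with at least 100 counts, the 10 outside the set that were most like its mean were Lmod1 (r = 0.95), Gm11627 (0.94), Tpm2 (0.93), Mustn1 (0.92), Aoc3 (0.91), Pdlim3 (0.91), Gpr20 (0.91), Wtip (0.90), Map3k7cl (0.90) and Pi15 (0.89). Lmod1 and Tpm2 are parts of the smooth muscle thin filament and Pdlim3 a LIM protein of actin filaments. Lmod1, Mustn1 and Map3k7cl are also on the list of 10 smooth muscle markers used here. The 47 sums share libraries, and their 6 smooth muscle sums carry much of each r, so these values describe the sums and no more.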

How the data were processed

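Single-cell RNA-seq data of tdT+/DAPI- cells (10x Genomics 3′ v3 chemistry, 1 pooled library for each of 3 conditions in 2 mouse lines, 6 libraries) were taken as deposited. The authors aligned and counted reads with Cell Ranger (7.0.0 in the submitters' processing notes) on mm10, removed cells by genes, UMIs and mitochondrial share, and deposited raw UMI counts per gene and cell, without normalisation, in 3 matrices. The per-cell tables that the authors deposited with them give the library, the cluster from integrated Seurat objects and the percent of mitochondrial UMIs of each cell. The 6 libraries held 3153996 to 54276245 UMIs in the 2 matrices by line. No column of another sample was left unused (0).

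For each cluster of a library the counts of its cells were added up and scaled to CPM, with exact 95% Poisson intervals. Ratios carry exact conditional binomial intervals, and shares of cells Clopper-Pearson intervals. No test was run, as each condition was 1 library. All genes went through the same calculation, a gene needed 10 counts in both sums together, a call meant 2-fold, and a count of 0 stood at a floor of 3 counts, with no value where that bound points the other way. For shares each cell was thinned to 1000 UMIs without replacement, and shallower cells were left out. No doublet caller was run. Companion lists (24 apparatus, 10 control, 13 non-muscle, 9 receptor and 4 other muscle genes) and markers were fixed lists. Lmod1, Ppp1r14a and Synpo2 were on both the apparatus list and the smooth muscle marker list. All 10 members were named, and so were listed companion genes past 2-fold from naïve, with values for those and for abundant ones that were picked after their values were seen; genes past 2-fold only in other comparisons were not named. Members and lists were chosen with earlier results of these data known. Gene positions came from GENCODE M21 (GRCm38), which may not be the release the authors used. Ratios were tested on simulated data. Python 3.11.15, numpy 2.4.6, pandas 2.3.3, scipy 1.17.1, matplotlib 3.10.9, R 4.3.3 and edgeR 4.0.16 (TMM factors only) were used. Alternatives were TMM factors, totals without the members, at least 50 counts, means of CPM per cell, cell filters applied again, cells without 2 UMIs of the marker list of another class (for shares with the smooth muscle list included), cells by marker list, naïve cells by cluster of the naïve matrix and thinning to 500 or 2000 UMIs. Leaving out cluster 8, leaving out cells with 3 smooth muscle markers, a minimum of 2000 UMIs per cell and shares without the smooth muscle list among the other classes were added after seeing the data. The lists of other classes were those of endothelial cells, fibroblasts, myeloid cells, oligodendrocytes, their precursors and red blood cells. The pericyte list and the list of astrocytes or radial glia were not used for this, in smooth muscle either.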

Additional observations from a re-analysis of the deposited data

Results flagged for a closer look

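Log2 ratios to naïve of 5 of the 10 genes had counting intervals on opposite sides of 0 in the NG2 and Tbx18 lines under the same injury, and the difference between the lines was not tested, since each line and condition was 1 library. The share of all genes with such opposite intervals was not counted, so 5 of 10 is not read as particular to the set. Des, the intermediate filament of muscle, was at -0.24 (-0.33 to -0.15) in NG2-tdT+ and 0.33 (0.14 to 0.53) in Tbx18-tdT+ smooth muscle after physical injury. In smooth muscle after ischemic injury Acta2 was at -0.089 (-0.11 to -0.07) and 0.52 (0.44 to 0.59), and Tagln at -0.12 (-0.14 to -0.09) and 0.46 (0.38 to 0.55). In pericytes after physical injury Myl9 was at -0.049 (-0.08 to -0.02) and 0.65 (0.57 to 0.74), and Pln, the inhibitor of the calcium pump, at -1.40 (-2.94 to -0.14) and 3.47 (2.54 to 4.57). The naïve Tbx18 library that enters each Tbx18 value was the smallest of the 6, and its part was not tested.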

How the results depend on the processing

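No paired analysis was possible because each line and condition was 1 pooled library with no replicate number. Of 152 summary values under the alternatives, 105 stayed within the range set for the reported value, and 13 had the opposite sign, 2 of them against a reported value that was past 2-fold or had an interval off 0. For median ratios this range ran from the median lower limit to the median upper limit of the members. It is the interval of a typical member and not the counting spread of the median. Of 1266 values of single genes 928 stayed within the counting interval of the reported value. The opposite sign was found for 136, 12 of them against a reported value past 2-fold or with an interval off 0. For single genes the minimum of 50 counts drops genes and changes no ratio, so its 130 values were the same by construction. Totals without the members gave 143 values, all within the interval, and could move a ratio only slightly. The cause was not tested in any case.

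The following are median log2 ratios of the members. In NG2-tdT+ smooth muscle, physical injury gave 0.11 with means per cell, 0.20 with the filters applied again, 0.13 without cells with 2 UMIs of the list of another class (marked cells), -0.16 by marker list and -0.011 with naïve cells by the naïve matrix. Ischemic injury gave 0.0097 with the filters, -0.73 by marker list and -0.19 with naïve cells by the naïve matrix, and ischemic against physical gave -0.54 by marker list. In Tbx18-tdT+ smooth muscle, physical injury gave 0.89 with TMM, 0.81 with means, 0.99 with the filters, 1.53 by marker list and 0.43 with naïve cells by the naïve matrix. Ischemic injury gave 0.52 with means, 0.49 with the filters and -1.04 by marker list, where Cnn1 came to -0.12. Ischemic against physical gave -0.69 with TMM and -2.57 by marker list. Between lines, naïve cells gave -0.54 with TMM, -0.57 with the filters and -0.80 by marker list, and the marker list gave 0.94 after physical and -1.03 after ischemic injury. The marker list took in many cells of other clusters. The pericyte list was not used to mark cells, so smooth muscle cells with pericyte UMIs were kept.

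In NG2-tdT+ pericytes, physical injury gave -0.12 with means, -0.36 without the marked cells, -0.29 with naïve cells by the naïve matrix and -0.33 without cluster 8. Without the marked cells Acta2 was -0.17 and Tagln -0.54 after physical injury and Tagln -0.019 after ischemic injury. Without cluster 8 Acta2 was -0.53 and Tagln -0.72 after physical injury and Acta2 -0.33 after ischemic injury. In Tbx18-tdT+ pericytes, physical injury gave 2.28 with naïve cells by the naïve matrix and 1.59 without cells with 3 smooth muscle markers, and Acta2 after ischemic injury was -0.17 without the marked cells. In cluster 4, physical injury gave -3.11 with the filters and -3.05 without the marked cells, and ischemic injury -2.13 with at least 50 counts and -2.22 without the marked cells, which left 8 naïve cells. TMM shifted every log2 ratio of cluster 4 by 0.42 and 0.65.

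Differences from naïve in the share of pericytes with a UMI are in percentage points. Without the marked cells they were -0.27 (physical) and -0.26 (ischemic) for Acta2 and -0.79 (ischemic) for Tagln in the NG2 line and 0.97 (ischemic) for Acta2 in the Tbx18 line. With cells marked by the smooth muscle list left out too they were -1.31 (physical) and -1.01 (ischemic) for Acta2 and -0.098 (ischemic) for Tagln in the NG2 line, and 2.06 for Acta2, -12.0 for Myh11 and -1.57 for Pln (physical) in the Tbx18 line. Without the marked cells Myh11 per 100 Acta2 became 30.2 in naïve and 30.2 in physical NG2-tdT+ smooth muscle, 29.3 and 28.6 in physical and ischemic cells of cluster 8, 44.7 and 146 in those of Tbx18-tdT+ pericytes, and 1.38 and 0 in those of cluster 4.

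With 1 library per condition no difference can be set against the spread between animals. Depth limits Actg2, Cnn1, Pln and Myocd outside smooth muscle.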

Other observations

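Control genes of the programme and vasoactive receptors were listed beside the set. In smooth muscle Nr4a1, an immediate early nuclear receptor, was at 1017, 1197 and 1164 CPM in naïve, physical and ischemic cells of the NG2 line and at 1353, 1561 and 554 CPM in the Tbx18 line, where it was the only control gene past 2-fold, lower after ischemic injury. Klf4, a repressor of the contractile genes, was at 993, 881 and 966 CPM and 922, 989 and 655 CPM. Ednrb, the second endothelin receptor, was past 2-fold higher after both injuries in NG2-tdT+ smooth muscle, at 2.31, 8.65 and 10.4 CPM. The purinergic channel P2rx1 was past 2-fold lower after ischemic injury in Tbx18-tdT+ smooth muscle, and the adrenergic receptor Adra2a after physical injury.

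In NG2-tdT+ pericytes Klf4 was past 2-fold lower after physical injury and Nr4a1 higher after ischemic injury. The angiotensin receptor Agtr1a was lower after both, with log2 ratios of -2.36 and -2.58, Ednrb was higher after ischemic injury, at 2.13, Vim higher after both, at 1.93 and 3.24, and Tpm4 after ischemic injury. In Tbx18-tdT+ pericytes Nr4a1 was past 2-fold higher after both injuries, at 1.11 and 1.24, and Mrtfa, a coactivator of serum response factor, after physical injury, at 1.07. Adra2a was higher after both, at 1.68 and 2.55, as was Agtr1a, which had no UMI in naïve cells. After ischemic injury Ednrb was higher, at 1.87, and P2rx1 lower, at -2.01.

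In cluster 4 of the Tbx18 line 5 of 10 control genes were past 2-fold lower after physical injury and 6 after ischemic injury, where 24.1% and 33.4% of all genes were. Notch3, Nr4a1 and Mrtfb were among them in both, Klf4 after ischemic injury, and Mrtfa was the 1 control gene higher, after physical injury. The mural transcription factors Foxs1 and Heyl, the latter a target of Notch signalling, were at 189, 4.76 and 3.07 CPM and 168, 3.66 and 1.54 CPM. Of 5 receptor genes with enough counts, all 5 were past 2-fold lower in both injuries, Npy1r and Tbxa2r included. Ednra was at 182, 34.8 and 14.6 CPM, and the nitric oxide receptor subunits Gucy1a1 and Gucy1b1 were at 278, 6.96 and 3.07 CPM and 409, 8.79 and 0 CPM. Of 4 listed genes of heart and skeletal muscle, Myl1, a fast skeletal light chain, was the one with enough counts in NG2-tdT+ smooth muscle. It stood there at 2.83, 6.59 and 1.30 CPM, on 11, 16 and 3 UMIs, past 2-fold higher after physical and lower after ischemic injury, with Actg2 highest and lowest in the same libraries.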
